A study of Mus musculus with 6 samples.

Results

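The 42 genes described here encode the subunits and upstream regulators of mTORC1 and the core machinery of autophagy. They were chosen by name from what their products do, though with earlier results of these data known, and all 42 were among the 19225 genes listed. RNA came from brain cells enriched for microglia, the resident macrophages of the brain, with magnetic beads against CD11b, a surface marker of myeloid cells. The mice were unstressed males, with an age of 3 months in the labels: 3 labelled Cnr1+/+ (strain C57BL6/J, genotype wt/wt) and 3 labelled Cnr1-/- (strain Cnr1 tm1Zim, genotype d/d). The Cnr1-/- label stands for a constitutive deletion of the CB1 cannabinoid receptor in every cell of the body, so the comparison is between whole-animal genotypes and not between microglia that differ in the receptor alone. The libraries count reads at the 3′ end of each transcript, and levels are given as deposited, in cpm, the reads of a gene scaled to a common library total. They were not divided by length because each transcript contributes a tag at its end, so levels of different genes were compared only as reads per transcript end.

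mTORC1 is a kinase complex on the lysosomal surface that promotes protein synthesis when growth factors and amino acids are plentiful. The same kinase holds back autophagy, in which a growing double membrane encloses cytoplasm and delivers it to the lysosome for degradation. Both matter in microglia, which take up and digest debris. mTORC1 also restrains TFEB and TFE3, transcription factors that switch on lysosomal and autophagy genes once they enter the nucleus.

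Depth was 7708808 to 10723820 reads per library, counted on the authors' normalisation, and a listed 0 allowed at most 0.280 to 0.389 cpm (3 reads; counting error only). For Cnr1 itself the 3 Cnr1+/+ libraries held no read (listed at 0), whereas it stood at 1.41, 1.21 and 1.79 cpm in the 3 labelled Cnr1-/-, from 13, 13 and 15 reads. The libraries count 3′ ends, whereas the allele disrupts the coding region, so these reads may lie outside the disrupted part and do not check the genotype. Where in the gene they lie was not examined. Their direction is opposite to the labels, and the groups are therefore called by their labels. If the labels had been exchanged, which was not tested, the direction of every difference given here would turn. The 12 microglial markers summed to between 15312 and 17798 cpm in every library. Library 2 labelled Cnr1-/- stood apart, with 9 neutrophil markers at a sum of 4099 cpm and 7 erythrocyte markers at 2342 cpm, where the other 5 libraries had 268 to 530 and 136 to 237 cpm. Its 6 monocyte markers summed to 107 cpm, beside at most 35.3 cpm elsewhere, and Chil3 alone gave 68.4 cpm of this. Ly6c2 (11.2 cpm, beside 0.716 to 3.44) and Plac8 (7.27 cpm, beside 2.15 to 4.41) were also above all other libraries. Ccr2, at 17.3 cpm, was inside the 15.4 to 23.4 cpm of the other libraries, and Vcan and F10 lay inside their ranges too. In bulk RNA of this kind, fewer cells of a type and less RNA per cell cannot be told apart.

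Because TFEB and TFE3 are members, the promoters of the genes were searched for CACGTG, the E-box core of the element these factors bind. RefSeq promoter windows (build GRCm38.p6, 250 bases before to 50 after a start) were matched for 35 of the 42 members. The motif, which reads the same on both strands, occurred in windows of 7 members (20% of the 35). Of all 27025 genes with a window, 8.09% held it, and 7.15% of all 32851 windows did. The longer form TCACGTG, which overlaps the core, was found on either strand in all of these but Atg5, which is 6 of the 35 members (17.1%) beside 4.29% of all genes. The sequences are shown to give the motif in its surroundings in each of the 7 members, and capitals mark the letters they share:
Atg3: CACGTGtcctgggagagtcgagtCACGTG
Atg5: cggagcgcttgcCACGTGgtcttggt
Atg7: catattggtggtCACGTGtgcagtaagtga
Lamtor1: ctgccttcctatCACGTGccgcgggtccgc
Lamtor4: ttaaCACGTGaacagcttttCACGTGtaaa
Rheb: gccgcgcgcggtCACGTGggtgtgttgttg
Rragc: ggtgattccgggCACGTGatagtaccactt

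The stretches lie at chr16:45158735-45158763 (Atg3), chr10:44268313-44268338 (Atg5), chr6:114670952-114670981 (Atg7), chr7:101905757-101905786 (Lamtor1), chr5:138255358-138255387 (Lamtor4) and chr4:123917309-123917338 (Rragc), all on the plus strand, and at chr5:24842440-24842469 on the minus strand (Rheb). The motif began between 14 bases (Atg5) and 132 bases (Atg7) before the RefSeq start, and Atg3 and Lamtor4 each held it at 2 positions. For Atg7 and Rheb the stretch lies inside the gene as the expression table bounds it, because the RefSeq start is further downstream. A FOXO-type motif, TGTTTAC, was found on either strand in windows of Akt1 and Sesn1, 5.71% of the 35 members, beside 4.05% of all genes. A match describes letters in a window and not a bound site, and its absence says only that these letters are not in the window.

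Mean levels over the 6 libraries ran from 1.41 cpm (Optn) to 88.4 cpm (Akt1), a 62.8-fold range. Of the 42 members, 8 were above 50 cpm, 26 between 10 and 50 cpm, and 8 below 10 cpm, which was the minimum mean for the test. The median level was 20.5 cpm over all 42 members, and 29.2 cpm over the 34 that reached the minimum, beside 26.0 cpm for the 6659 genes that did.

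**Figure D1:**
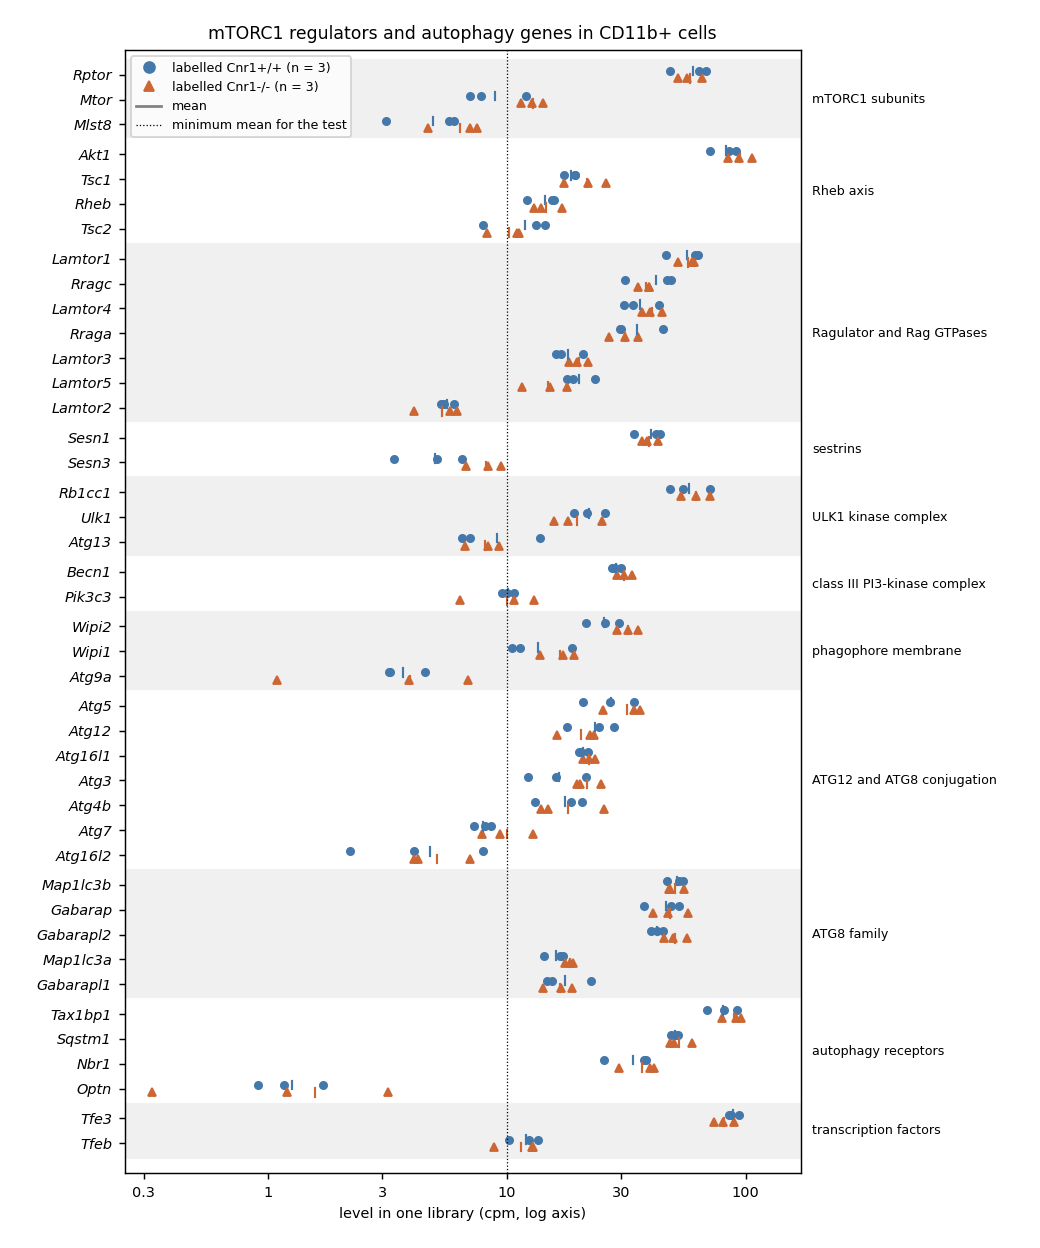
Level of each of the 42 genes in each library, in cpm on a log axis, grouped by role; circles are the 3 libraries labelled Cnr1+/+, triangles the 3 labelled Cnr1-/-, short bars the group means, and the dotted line the minimum mean of 10 cpm for the test. The groups lie on top of each other for most genes, while the genes themselves span levels from 1.41 to 88.4 cpm.

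Among the subunits of mTORC1, Rptor, which encodes the scaffold raptor that recruits substrates, had the highest level. It stood at 48.3, 63.6 and 68.2 cpm in the libraries labelled Cnr1+/+ and at 56.9, 65.3 and 52.2 cpm in those labelled Cnr1-/-, and was 3.68 to 8.17 times the level of Mtor, the kinase, in every library. Mlst8, encoding the small subunit that stabilises the kinase, had the lowest level, at 5.97, 3.09 and 5.68 cpm against 7.47, 6.99 and 4.65 cpm. This order, Rptor above Mtor above Mlst8, held in 6 of 6 libraries.

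Growth factor signals reach the complex through the kinase Akt1, the TSC1-TSC2 brake and the small GTPase Rheb, which activates mTORC1. Akt1 (chr12:112653821-112674884) had the highest mean over the 6 libraries of any member, though Tfe3 or Tax1bp1 was above it in 4 of the 6, and stood at 85.4, 90.7 and 70.8 cpm in the libraries labelled Cnr1+/+ and 93.6, 106 and 84.2 cpm in those labelled Cnr1-/-, and exceeded Rheb 4.58-fold to 8.18-fold. Tsc2 was the lowest of these genes, at 7.91, 14.4 and 13.3 cpm against 11.3, 11 and 8.23 cpm, and Tsc1 was above it in every library. Tsc2 ends against Pkd1 (mean 31.5 cpm) on the opposite strand, and the strand setting of the counting is not given in the sources used here, so its reads are uncertain.

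Amino acids act through Ragulator, the lysosomal anchor encoded by Lamtor1 to Lamtor5, and the Rag GTPases it holds, of which Rraga and Rragc are members. Although Ragulator carries its subunits in equal numbers, their transcripts were unequal. Lamtor1, whose product tethers the complex to the membrane, was at 62.9, 46.3 and 61.1 cpm in the libraries labelled Cnr1+/+ and 51.9, 60.8 and 59.3 cpm in those labelled Cnr1-/-. Lamtor2 was at 5.45, 5.29 and 5.99 cpm against 5.74, 6.15 and 4.05 cpm, 8.75 to 14.6 times lower in the same library. Lamtor4 (38.1 cpm), Lamtor3 (18.9 cpm) and Lamtor5 (17.4 cpm) lay between them. Lamtor5 was above Lamtor3 in the 3 libraries labelled Cnr1+/+ and below it in the 3 labelled Cnr1-/-, a split that was not tested. Rragc was level with or above Rraga in all 6 libraries, by 1.00-fold to 1.55-fold.

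The sestrins restrain mTORC1 when amino acids are short or the cell is under oxidative stress. Sesn1 was at 43.8, 34.0 and 41.9 cpm in the libraries labelled Cnr1+/+ and 36.6, 42.8 and 38.4 cpm in those labelled Cnr1-/-. Sesn3 was 4.08 to 12.4 times lower.

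Autophagosome formation starts with the ULK1 kinase complex. Its scaffold Rb1cc1, which encodes FIP200, was at 48.0, 71.0 and 54.8 cpm in the libraries labelled Cnr1+/+ and 61.6, 70.9 and 53.5 cpm in those labelled Cnr1-/-, above the kinase Ulk1 (mean 20.8 cpm) by 1.87-fold to 3.72-fold. Atg13, its regulatory partner, was lowest at 7.0, 6.48 and 13.7 cpm against 8.34, 9.23 and 6.68 cpm. Of the 6 values of Rb1cc1, only 1 was a whole number of reads. In the lipid kinase complex that marks the new membrane, Becn1, encoding the scaffold beclin, was at 27.5, 28.4 and 30.1 cpm against 28.9, 33.4 and 30.8 cpm. Pik3c3, the catalytic subunit, was at 10.6, 9.48 and 9.99 cpm against 10.7, 12.96 and 6.32 cpm, and was below Becn1 in every library. Both complexes thus had their scaffold transcript above the kinase transcript in 6 of 6 libraries.

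Wipi1 and Wipi2 encode proteins that read the lipid mark, and Atg9a encodes a membrane protein that brings lipid to the growing membrane. Wipi2 was at 21.4, 25.8 and 29.4 cpm in the libraries labelled Cnr1+/+ and 32.2, 35.3 and 28.9 cpm in those labelled Cnr1-/-, and exceeded Wipi1 1.57-fold to 2.35-fold. Only 1 of the 6 values of Wipi2 was a whole number of reads. Atg9a was at 4.51, 3.21 and 3.22 cpm against 3.89, 6.82 and 1.08 cpm, but none of its 6 values was a whole number of reads. The lncRNA Gm29253 (5.88 cpm) covers its 3′ end on the same strand, so its level is uncertain.

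Of the conjugation genes, Atg5, whose product joins ATG12 and ATG16L1 in the complex that attaches the ATG8 proteins to lipid, was the highest at 20.9, 26.9 and 34.1 cpm in the libraries labelled Cnr1+/+ and 25.1, 36.1 and 34.0 cpm in those labelled Cnr1-/-. The enzyme that activates both conjugation pathways, Atg7, was at 8.04, 7.28 and 8.52 cpm against 9.31, 12.8 and 7.87 cpm. Atg16l2, a relative of Atg16l1, was the lowest at 2.21, 4.09 and 7.89 cpm against 4.22, 6.99 and 4.05 cpm, and its end lies against Fchsd2 (74.4 cpm) on the opposite strand. Between these came Atg12 (21.9 cpm), Atg16l1 (21.4 cpm), the conjugating enzyme Atg3 (19.0 cpm) and the protease Atg4b (17.7 cpm).

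The ATG8 proteins coat the membrane and hold the cargo receptors, and their transcripts fell into a higher and a lower tier. Map1lc3b, the LC3 form most used to follow autophagy, was at 52.7, 46.9 and 54.4 cpm in the libraries labelled Cnr1+/+ and 48.2, 54.9 and 47.8 cpm in those labelled Cnr1-/-. Gabarap (47.3 cpm) and Gabarapl2 (46.6 cpm) were close to it, and Gabarap was the higher of the pair in 3 of 6 libraries. Gabarapl1 (mean 17.1 cpm) was at 15.4, 14.7 and 22.4 cpm against 16.9, 18.7 and 14.2 cpm, and Gabarap exceeded it 2.35-fold to 3.16-fold. Map1lc3a, also at a mean of 17.1 cpm, was below Map1lc3b by 2.62-fold to 3.81-fold. Map1lc3b shares its end with Gm20388 on the same strand and only 1 of its 6 values was a whole number of reads.

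Cargo receptors link ubiquitin-marked material to the ATG8 proteins on the inner face of the forming membrane. Tax1bp1 was the highest, at 68.6, 92.3 and 80.9 cpm in the libraries labelled Cnr1+/+ and 79.8, 95.7 and 91.1 cpm in those labelled Cnr1-/-. Sqstm1, which encodes p62, averaged 51.5 cpm and Nbr1 35.2 cpm, and the order Tax1bp1, Sqstm1, Nbr1 held in 6 of 6 libraries. Optn was at 0.908, 1.70 and 1.16 cpm against 0.325, 3.17 and 1.19 cpm, from 3 to 34 reads, too few to compare the groups. Of the transcription factors, Tfe3 was at 86.5, 84.7 and 94.0 cpm against 73.7, 80.3 and 89.6 cpm. Tfeb was at 12.3, 10.2 and 13.5 cpm against 8.77, 12.8 and 12.8 cpm, 6.28 to 8.41 times below Tfe3.

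No member passed the test between the genotype labels. Of the 34 members that reached a mean of 10 cpm, 0 had a nominal p under 0.05 and 0 an adjusted p under 0.1 in limma with Benjamini-Hochberg adjustment over all 6659 genes, and limma voom also gave 0 of each. Without the variance trend, limma gave 2 members with a nominal p under 0.05, Mtor and Lamtor5, and 0 with an adjusted p under 0.1, where 391 of all genes (5.87%) passed the nominal threshold. Among all genes tested, 401 (6.02%) had a nominal p under 0.05, 339 (5.09%) in the upward and 62 (0.931%) in the downward direction, and 7 (0.105%) had an adjusted p under 0.1. The direction of those nominal calls depended on the scale, since 197 of 375 were higher after centring each library on its median, 163 of 360 after quantile normalisation and 142 of 354 after rescaling without mitochondrial genes. The 8 members below the minimum were Atg13, Atg16l2, Atg7, Atg9a, Lamtor2, Mlst8, Optn and Sesn3. A missed threshold does not show equal levels, so the intervals are given. The 95% interval of the fold change lay within 1.5-fold in either direction for 20 of the 34 (58.8%, beside 56.4% of all genes), and within 2-fold for 33, with Mtor the exception.

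**Figure D2:**
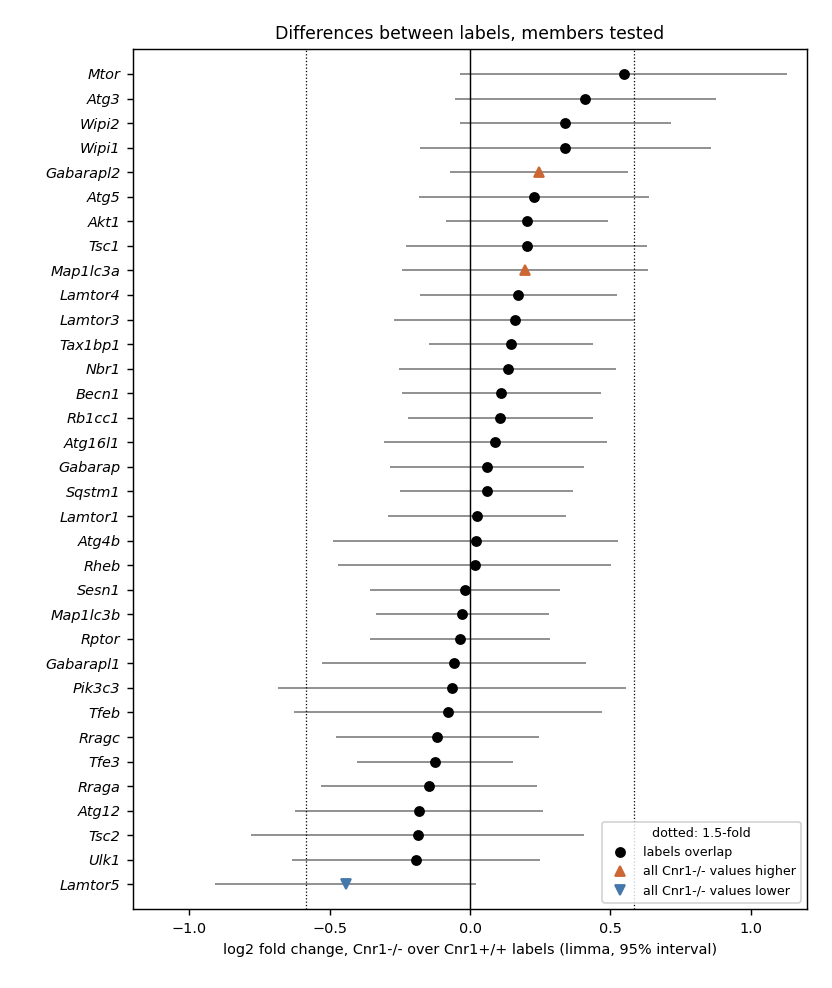
Log2 fold change of each of the 34 tested genes, libraries labelled Cnr1-/- over those labelled Cnr1+/+, with 95% intervals from limma as bars, coloured triangles for genes whose groups do not overlap and dotted lines at 1.5-fold. Points run from -0.44 (Lamtor5) to 0.55 (Mtor), and every interval includes 0.

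On the log2 scale the differences ran from -0.44 to 0.55 with a median of 0.06, beside 0.08 for all genes. They were above 0 for 21 members and below 0 for 13 (61.8% above, beside 68.4% of all genes), but for only 16, 16 and 15 of the 34 under the same 3 rescalings. None of the 34 tested members exceeded a 1.5-fold change, and 135 of the 6659 genes did.

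The groups did not overlap for 3 of the 34 tested members (8.82%), beside 731 genes (11%) of all genes tested. In 2 of the 3 the Cnr1-/- label was above the other, and in 1 below. The Ragulator subunit gene Lamtor5 (chr3:107278858-107284082) was at 18.9, 17.9 and 23.3 cpm in the libraries labelled Cnr1+/+ and at 15.2, 17.8 and 11.6 cpm in those labelled Cnr1-/-. All values of the latter group were lower, by a narrow margin, with means of 20.05 ± 2.91 and 14.8 ± 3.13 cpm (SD, n = 3 each). The fold was 0.735 with an interval of 0.533 to 1.01 (log2 -0.44, SE 0.227, adjusted p = 0.829 in limma). Its nominal p of 0.0607 in limma was the lowest among the 34 tested members, and a two-sided exact permutation test gave p = 0.1, the smallest that 3 against 3 allows. On the 3 rescaled scales the nominal limma p was 0.0222, 0.0224 and 0.0201, with no adjusted p under 0.1. The other Ragulator genes tested had overlapping groups and folds of 1.02 for Lamtor1, 1.12 for Lamtor3 and 1.13 for Lamtor4.

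Gabarapl2 (chr8:111940703-111953612) was at 42.6, 40.0 and 45.1 cpm in the libraries labelled Cnr1+/+ and at 49.4, 57.0 and 45.6 cpm in those labelled Cnr1-/-, the groups just clearing each other. Only 2 of its 6 values were whole numbers of reads, so this narrow gap is uncertain. Its means were 42.6 ± 2.56 and 50.7 ± 5.81 cpm (SD, n = 3 each), a fold of 1.19 with an interval of 0.951 to 1.48 (adjusted p = 0.865 in limma). Map1lc3a (chr2:155276297-155278073) was at 16.6, 17.1 and 14.3 cpm against 18.4, 18.9 and 17.5 cpm, again without overlap. The fold of Map1lc3a was 1.15 with an interval of 0.846 to 1.55 (adjusted p = 0.937 in limma). The remaining ATG8 family genes had overlapping groups and folds of 0.98 (Map1lc3b), 1.04 (Gabarap) and 0.961 (Gabarapl1).

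Sesn3 (chr9:14275067-14333101) was below the minimum mean and its groups did not overlap either, at 5.06, 6.48 and 3.37 cpm in the libraries labelled Cnr1+/+ and 6.71, 8.30 and 9.42 cpm in those labelled Cnr1-/-. These values rest on 32 to 89 reads. Fitted without the filter on low values, its log2 fold change was 0.74 and limma gave a nominal p of 0.0429, adjusted 0.954. Sesn1, the more abundant sestrin, had a fold of 0.988 with an interval of 0.782 to 1.25.

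Among the 34 tested members, the difference furthest from 0 on the log2 scale in either direction was that of the kinase gene Mtor (chr4:148448611-148557683), at 7.0, 7.78 and 11.99 cpm in the libraries labelled Cnr1+/+ and 11.5, 12.7 and 14.2 cpm in those labelled Cnr1-/-. The groups overlapped through library 3 labelled Cnr1+/+. Means were 8.93 ± 2.68 and 12.8 ± 1.36 cpm (SD, n = 3 each), a fold of 1.46 with an interval of 0.976 to 2.19 (log2 0.55, SE 0.284, adjusted p = 0.829 in limma). Its partner Rptor had a fold of 0.976 with an interval of 0.781 to 1.22. Without library 3 labelled Cnr1+/+, Mtor and 3 further members, Wipi1, Wipi2 and Atg3, passed a nominal p of 0.05, with log2 fold changes of 0.78, 0.60, 0.45 and 0.62 in that order, and none passed the adjusted threshold. In that same fit 600 of 6614 genes (9.07%) passed the nominal threshold. With all libraries the folds were 1.27 for Wipi2 (interval 0.975 to 1.64) and 1.33 for Atg3 (interval 0.964 to 1.83).

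For several genes central to the pathway the intervals were narrow. Tfe3 had a fold of 0.916 with an interval of 0.756 to 1.11, Sqstm1 1.04 with 0.841 to 1.29, and Akt1 1.15 with 0.942 to 1.41. The low genes Tfeb and Pik3c3 had wider intervals, with folds of 0.947 (interval 0.647 to 1.38) and 0.956 (0.623 to 1.47). Ulk1, at a mean of 20.8 cpm, also had a wider interval, 0.645 to 1.19 around a fold of 0.876.

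The spread within a group was a median of 15.6% of the mean (coefficient of variation) over the tested members, beside 14.9% for all genes, whereas counting error alone came to a median of 6.05%. Atg16l1 was the steadiest at 5.32% and Atg4b the most variable at 29.8%. The highest value of a tested member was in library 2 labelled Cnr1-/- for 16 of 34 (31.7% of all genes had their highest value there), and the lowest for 0 of 34 (4.17% of all genes). The lowest value was in library 1 labelled Cnr1+/+ for 15 of 34, beside 38.1% of all genes. After each library was centred on its median, these counts fell to 7 highest in library 2 labelled Cnr1-/- (13.8% of all genes) and 7 lowest in library 1 labelled Cnr1+/+ (21.2%). Other libraries then led, with the highest value in library 1 labelled Cnr1+/+ for 8 members (20.02% of all genes) and the lowest in library 3 labelled Cnr1-/- for 10 (17.1%). Library 2 labelled Cnr1-/- is the library with the high neutrophil and erythrocyte markers. Without it, 17 of 33 tested members were higher in the libraries labelled Cnr1-/-, the median log2 fold change was 0.01, and Lamtor5 had a nominal p of 0.0295 with log2 -0.59 in limma.

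**Figure D3:**
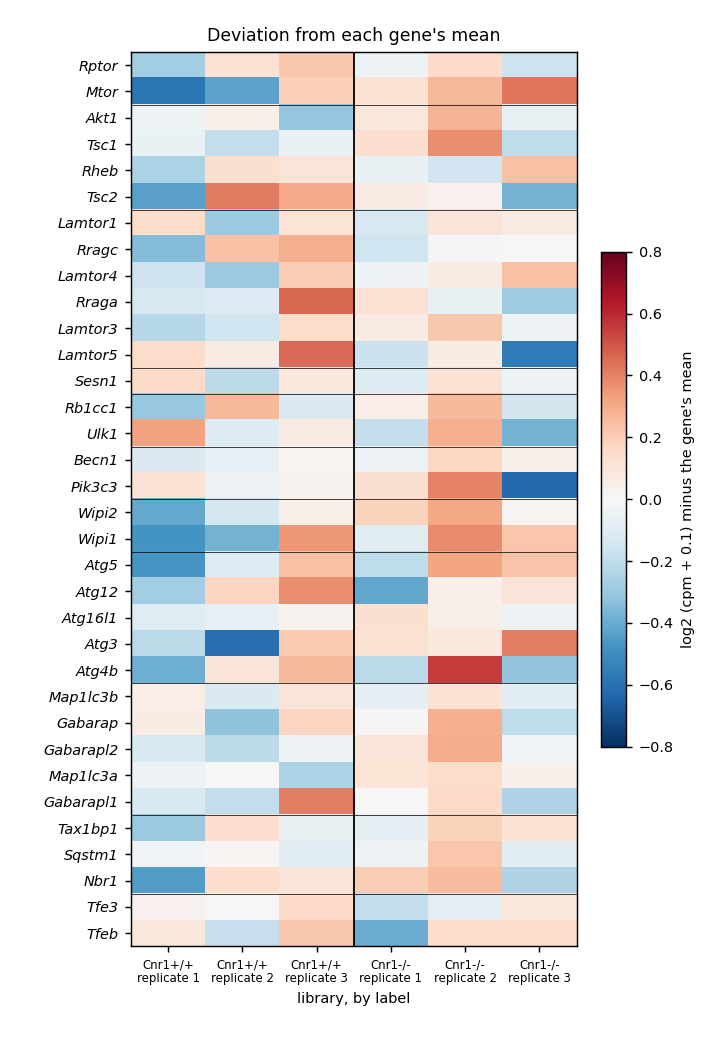
Deviation of each tested gene in each library from its mean over the 6 libraries, on the log2(cpm + 0.1) scale, with red for higher and blue for lower, genes down the side by role and libraries across. Library 2 labelled Cnr1-/- holds the highest value for 16 of the 34 genes and library 1 labelled Cnr1+/+ the lowest for 15, against 7 each after centring on library medians.

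Further genes of both pathways were taken by role, also with earlier results of these data known. Of 48 other mTORC1 pathway names, 45 were listed and 23 reached the minimum. Of these 23, 1 was higher and 1 lower at a nominal p under 0.05, beside 6.02% of all genes in either direction, and the groups did not overlap for 4 (17.4%, beside 11% of all genes). Ddit4, which encodes REDD1, a stress-induced inhibitor of mTORC1, was at 44.6, 30.9 and 86.7 cpm in the libraries labelled Cnr1+/+ and 214, 184 and 61.9 cpm in those labelled Cnr1-/-. It rose (log2 fold change 1.45, SE 0.304, adjusted p = 0.0568 in limma), although library 3 labelled Cnr1-/- lay below library 3 labelled Cnr1+/+. The adjusted call was lost after centring (adjusted p = 0.548 in limma), quantile normalisation (0.604), rescaling (0.526) and without the variance trend (0.825), and likewise without library 1 (0.121) or 2 (0.715) labelled Cnr1+/+ or library 1 labelled Cnr1-/- (0.539), while the log2 fold change stayed between 1.11 and 2.01 in these fits and all others. Foxo1, a transcription factor held out of the nucleus by AKT, was at 28.1, 27.3 and 34.6 cpm against 18.1, 23.6 and 24.6 cpm, lower without overlap, with a log2 fold change of -0.45 and an adjusted p of 0.792 in limma. Its nominal call was lost without library 3 labelled Cnr1+/+ (log2 -0.34) or library 1 labelled Cnr1-/- (log2 -0.31).

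Of 40 other autophagy names, 38 were listed and 25 tested, of which 1 was higher and 0 lower at a nominal p under 0.05 (6.02% of all genes in either direction) and 0 passed the adjusted threshold in limma. The scaffold gene Wdfy3, which encodes ALFY, a protein that brings aggregates to the autophagy machinery, was at 36.8, 44.4 and 42.2 cpm in the libraries labelled Cnr1+/+ and 48.1, 53.4 and 58.4 cpm in those labelled Cnr1-/-. Its groups did not overlap, and its log2 fold change was 0.37 with an adjusted p of 0.792 in limma. Its nominal call was lost after rescaling without mitochondrial genes (log2 0.27) and without library 1 labelled Cnr1+/+ (0.30), library 2 labelled Cnr1-/- (0.37) or library 3 labelled Cnr1-/- (0.30). Median log2 fold changes were 0.00 for the other mTORC1 genes and 0.11 for the other autophagy genes, beside 0.06 for the members and 0.08 for all genes. The members' median turned slightly negative under the 3 rescalings, where the median of all genes also moved down, by at most 0.0998.

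**Figure D4:**
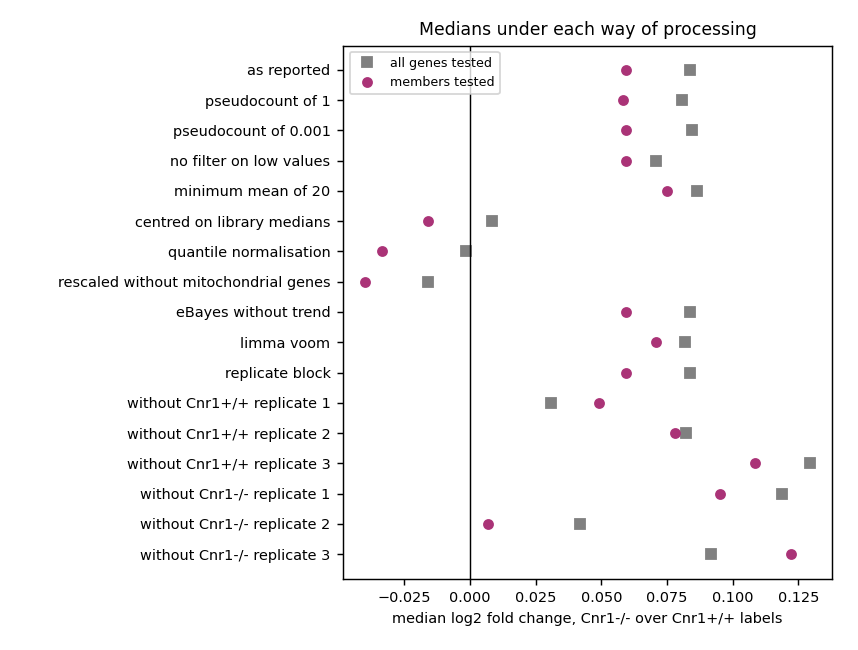
Median log2 fold change, libraries labelled Cnr1-/- over those labelled Cnr1+/+, of the tested members (circles) and of all genes tested (squares) under each way of processing the values. The members' median ran from -0.0398 after rescaling without mitochondrial genes to 0.12 without library 3 labelled Cnr1-/-.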

How the data were processed

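The authors prepared QuantSeq 3′ mRNA libraries, aligned 50-base reads with STAR 2.6.1d to mm10 in Partek Flow, quantified genes with Partek E/M against Ensembl release 99 and deposited TMM-normalised values, which are here treated as cpm. Between 83.4% and 85.5% of values were whole multiples of 1 read (tolerance 0.02 reads), so reads behind a value are approximate and no count test was run. The quantification shares reads between overlapping genes by expectation-maximisation. limma 3.58.1 (R 4.3.3; lmFit, eBayes with trend) was run on log2(cpm + 0.1), with the genotype label alone in the model, over 6659 genes that averaged 10 cpm or more, and p-values were adjusted by Benjamini-Hochberg across all of these. Fold changes are on that scale and understate the change of low genes. Calls used p under 0.05 unadjusted (nominal) or under 0.1 adjusted. The script was tested on simulated data. Each library is from 1 mouse. The members, the pathway lists and the tests were chosen with earlier results of these data known. All members are named. Values per library are given for members with a nominal p under 0.05 or without overlap between groups, and for the highest and lowest member of each role; other values were named after they were seen. Of the pathway lists, genes with a nominal p under 0.05 are named. Of the cell type markers, sums are given for microglia, neutrophils, erythrocytes and monocytes. Border-associated macrophage markers summed to 304 to 431 cpm, astrocyte 330 to 625, oligodendrocyte 423 to 858, neuron 39.6 to 43.5, endothelial 21.0 to 28.4 and lymphocyte (1 of 7 listed) 0 to 1.68 cpm.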

Additional observations from a re-analysis of the deposited data

How the results depend on the processing

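No member reached an adjusted p under 0.1 in limma under any of the 16 alternatives (smallest 0.439). The number of members with a nominal p under 0.05, 0 as reported, was 1 without the filter on low values (Sesn3; 5.17% of all genes), 1 each after centring (5.63%), quantile normalisation (5.41%) and rescaling without mitochondrial genes (5.32%), each time Lamtor5, 2 without the variance trend (Mtor and Lamtor5; 5.87%), and 0 to 4 when 1 library was left out (3.81% to 9.07%). Members without overlap numbered 1 of 22 at a minimum mean of 20 cpm (11.6% of all genes), 2 of 34 after quantile normalisation (10.5%) and after rescaling (10.6%), and 4 to 11 with 1 library left out (17.5% to 26.1% of all genes), where fewer libraries per group make overlap rarer. The other mTORC1 pathway genes with a nominal p under 0.05, 2 as reported, numbered 4 under each of the 3 rescalings and 1 to 3 with 1 library left out. The other autophagy genes, 1 as reported, numbered 2 after centring and after quantile normalisation and 0 to 2 with 1 library left out. The cause of these changes was not tested.

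Of 529 member values under alternatives, 475 kept direction and side of the threshold, 10 newly passed the nominal threshold, and 44 changed sign. In all, 19 of 34 members never changed sign. After centring, quantile normalisation and rescaling in that order, log2 fold changes were -0.0555, -0.046 and -0.079 for Atg4b, -0.0152, -0.033 and -0.0391 for Gabarap, -0.052, -0.0671 and -0.0759 for Lamtor1, -0.0592, -0.0600 and -0.0825 for Rheb, and -0.0167, -0.0341 and -0.0406 for Sqstm1. Atg16l1 was at -0.00885 after rescaling, and Rheb at -0.0143 with voom. With 1 library left out, values ranged over both signs for Atg4b (-0.26 to 0.18), Gabarap (-0.0843 to 0.18), Gabarapl1 (-0.17 to 0.13), Lamtor1 (-0.12 to 0.10), Map1lc3b (-0.0932 to 0.0153), Nbr1 (-0.0569 to 0.29), Pik3c3 (-0.10 to 0.23), Rb1cc1 (-0.0168 to 0.26), Rheb (-0.11 to 0.096), Rptor (-0.18 to 0.0642), Rraga (-0.25 to 0.0471), Sesn1 (-0.13 to 0.054), Sqstm1 (-0.0363 to 0.12) and Tfeb (-0.19 to 0.0997).

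The sources used here do not say whether the replicate numbers pair the mice. Deviations of same-numbered libraries correlated at -0.06, -0.03 and -0.03, and no library correlated best with its own number. Differently numbered libraries correlated as weakly, from -0.004 to 0.04, so these values cannot decide whether the mice were paired. With a replicate block, 0 members had a nominal p under 0.05 (421 of all genes, beside 401), 21 were higher and the median was 0.06.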
